A study of Mus musculus with 12 samples.

Results

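Etv1, Etv4 and Etv5 are the PEA3 subfamily of ETS transcription factors, chosen here by symbol, and all 3 were found among the 24421 genes of both deposited tables. Their levels were followed by polyA RNA sequencing in 12 mouse libraries, 3 per group. The ETV5 tumours were ZFTA-RELA ependymomas with overexpression of human variant ETV5, and the NPY tumours were ZFTA-RELA ependymomas with overexpression of human variant NPY, the neuropeptide Y precursor. The control tumours were ZFTA-RELA ependymomas whose labels name no added gene. The ZFTA-RELA fusion of a zinc finger protein with an NF-kappaB subunit was thus shared by all tumours. The cortex was wild-type, non-tumour tissue. The labels state no age, strain, promoter or vector. Because both added genes are human, the row of mouse Etv5 stands for the endogenous gene, and it does not check the overexpression itself. Reads of human ETV5 that aligned to mouse Etv5 cannot be told apart from endogenous reads. No label says that replicates are separate animals, and a p-value here therefore covers the spread among the libraries, which may be technical.

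PEA3 factors are activators that bind DNA through the ETS domain. Their genes are switched on by receptor kinases such as FGF receptors through RAS and ERK, and are held down by the repressor Capicua, the product of Cic, which ERK signalling removes. The proteins are short-lived and are marked for destruction by the COP1 ubiquitin ligase. In the mouse, Etv1 is known from layer 5 neurons of the cortex, Etv4 from motor neuron pools and, with Etv5, from kidney branching, and Etv5 from the self-renewal of spermatogonial stem cells and from glia.

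The genes lie apart in mm10 (GENCODE M21), and no other annotated gene overlaps them. Etv1 (ENSMUSG00000004151.17) spans chr12:38779380-38870484 on the plus strand, Etv4 (ENSMUSG00000017724.14) chr11:101769742-101785371 on the minus strand, and Etv5 (ENSMUSG00000013089.15) chr16:22381309-22439719 on the minus strand. All are protein coding, with coding sequences of 1434, 1461 and 1587 bases. Aligned coding bases were 66.7% identical between Etv1 and Etv4, 71.5% between Etv1 and Etv5 and 67.8% between Etv4 and Etv5. The following window was the most alike stretch of 90 coding bases. It is shown because it bears on whether reads of these relatives can be separated. Capitals mark the 16 positions at which at least 1 gene differs (GENCODE M21 transcripts, coding strand).
Etv1: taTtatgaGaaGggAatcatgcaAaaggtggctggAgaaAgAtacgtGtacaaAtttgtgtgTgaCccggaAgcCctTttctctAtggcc
Etv4: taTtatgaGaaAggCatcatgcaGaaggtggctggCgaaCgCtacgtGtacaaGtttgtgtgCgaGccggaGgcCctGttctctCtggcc
Etv5: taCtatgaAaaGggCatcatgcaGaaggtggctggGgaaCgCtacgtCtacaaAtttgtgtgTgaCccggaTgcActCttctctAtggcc
The other 74 positions were identical in all 3. Over all annotated transcripts, untranslated parts included, the longest identical run was 23 bases for Etv1 and Etv5, 23 for Etv4 and Etv5, and 18 for Etv1 and Etv4.

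RefSeq promoter windows (GRCm38.p6, 250 bases before to 50 after a start) were at hand for 2 starts of Etv1 and 2 of Etv5, and not for Etv4. The Capicua octamers TGAATGAA, TGAATGGA, TCAATGAA and TCAATGGA, searched on both strands, had 0 matches in these 4 windows, and between 0.67% and 1.30% of all 32851 promoter windows held each. The shorter core TGAATG, which lies inside 2 of the octamers and was picked after the sequences were seen, was held by 12.7% of all windows. It had 3 matches at the inner start of Etv5 and none in the other 3 windows. The upstream part of that window lies in an intron, chr16:22438369-22438618 on the minus strand, and is shown for these matches, in capitals on either strand.
Etv5 inner start: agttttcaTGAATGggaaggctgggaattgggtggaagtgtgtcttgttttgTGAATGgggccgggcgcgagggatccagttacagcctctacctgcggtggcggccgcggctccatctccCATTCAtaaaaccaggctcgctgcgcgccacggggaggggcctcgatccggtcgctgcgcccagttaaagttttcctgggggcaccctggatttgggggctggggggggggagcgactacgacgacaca
A match describes letters in the window and is no measure of binding.

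Depth was 6691146 to 11291057 reads in ETV5 tumours, 8214523 to 10481943 in NPY tumours, 6266613 to 9443466 in control tumours and 5962376 to 7444467 in cortex. Levels are CPM, a gene's reads scaled by the total of its library, from reads recovered from the deposited values, and CPM per kilobase of exon wherever genes are compared with each other. The 6 pan-neuronal markers summed to 37.6 to 914 CPM in tumour libraries and 6822 to 7372 CPM in cortex libraries, and proliferation markers ran the other way (651 to 1534 CPM in tumours and 56.9 to 63.9 in cortex). In bulk tissue, fewer cells of a type and less RNA per cell cannot be told apart. The library codes began with DS in cortex, control tumours and ETV5 replicates 1 and 2, and with EC in ETV5 replicate 3 and all NPY tumours. What the prefix stands for is not stated in the labels. Among tumours, ETV5 replicate 2 stood apart for Etv1 and several ERK-induced genes, and was also the highest library for Etv4 and Etv5. Fold changes of the members in ETV5 against control or NPY tumours are given with and without it. Ranks among ETS genes, list counts and correlations include it.

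Control tumours were first compared with cortex, the question being how the endogenous PEA3 genes differ between ZFTA-RELA tumours and non-tumour tissue. Etv5 and Etv4 were higher in control tumours and Etv1 was lower, so the subfamily did not move as a block. All 3 members passed an adjusted p of 0.05, in a comparison in which 72.0% of the 14621 genes tested did, 35.7% as higher and 36.2% as lower. Calls here are from limma on log2(deposited value + 1), with Benjamini-Hochberg adjustment over all genes tested.

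Etv5 stood at 264, 322 and 299.5 CPM in control tumours, and at 106, 144 and 109 CPM in cortex. The lowest tumour library was well above the highest cortex library. The log2 fold change was 1.14 (SE 0.16, limma, adjusted p = 0.000243), a 2.20-fold rise.

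Etv4 was a low-count gene in cortex, with 90 to 119 reads per library. It stood at 45.1, 26.6 and 31.3 CPM in control tumours, and at 12.1, 15.3 and 16.6 CPM in cortex. The groups did not overlap, and control replicate 1 was the highest. Etv4 rose by 1.03 on the log2 scale (SE 0.22, limma, adjusted p = 0.0031), or 2.04-fold.

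Etv1 went the other way. It stood at 32.3, 27.5 and 33.7 CPM in control tumours, and at 84.5, 74.1 and 56.7 CPM in cortex. Each tumour library was below each cortex library, and the cortex libraries spread more widely than the tumours. Its log2 fold change was -1.36 (SE 0.17, limma, adjusted p = 0.000105), a 2.56-fold lower value. Of all genes tested, 33.6% lay wholly below cortex, as Etv1 did, and 43.8% wholly above it, as Etv4 and Etv5 did.

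**Figure D1:**
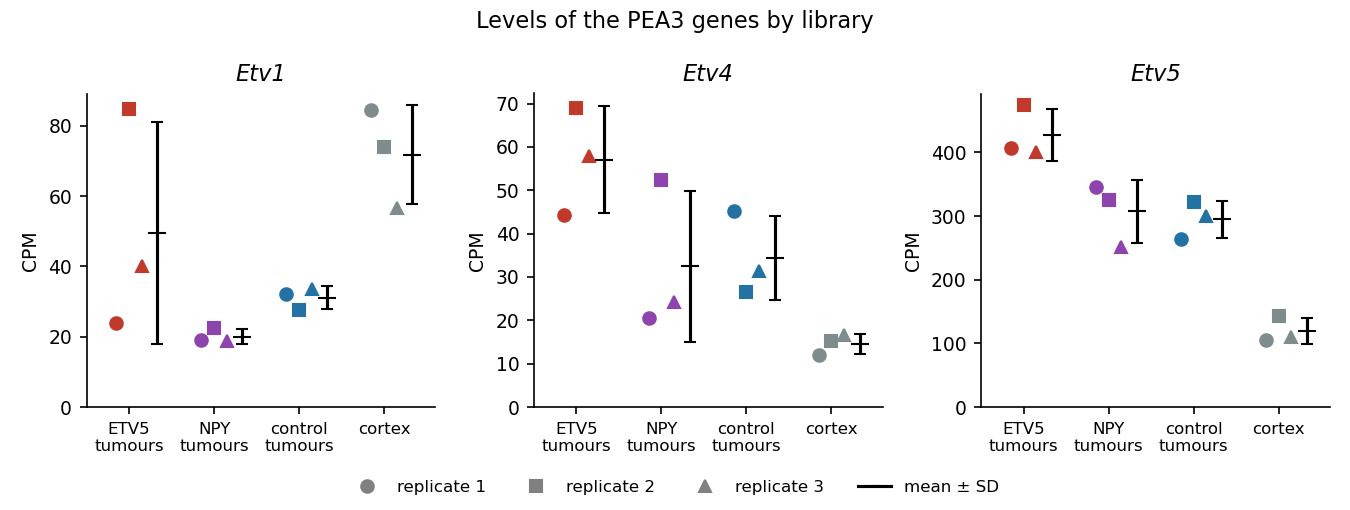
Level of each gene in CPM (vertical axis, from 0) in the ETV5, NPY and control tumours and in cortex. Points are libraries, shaped by replicate, and black marks give the mean ± SD of 3 libraries. Etv4 and Etv5 are lowest in cortex, while Etv1 reaches its cortical level in the tumours only in ETV5 replicate 2, at 84.9 CPM.

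Most neuronal markers were lower in control tumours as well, where 36.2% of all genes tested were lower and 35.7% higher. Of 10 listed layer 5 neuron markers, 5 fell, 3 rose and 2 did not pass, with a median log2 fold change of -1.05, against -0.0032 over all genes tested. The 2 most abundant in cortex were Pcp4, a calmodulin-binding protein gene, which fell (13.2 ± 6.78 CPM in control tumours and 387 ± 93.2 in cortex), and Sulf2, a heparan sulfatase gene, which rose (421 ± 92.1 CPM in control tumours and 131 ± 12.5 in cortex). All 8 excitatory neuron markers and all 6 pan-neuronal markers fell, with medians of -3.87 and -3.85. The summed excitatory markers stood at 405 to 825 CPM in control tumours and 5809 to 7247 CPM in cortex. No marker of these 3 lists was at 0 in a control or cortex library, and their part in the Etv1 result was not tested.

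Both added-gene tumours were also set against the same cortex libraries, so these comparisons share their reference libraries and are not independent of the first. In ETV5 tumours 2 of the 3 members passed, both as higher, where 63.8% of 14493 genes did and 31.8% were higher. Etv5 was 3.17-fold higher (log2 fold change 1.66, SE 0.17, limma, adjusted p = 0.000293) and Etv4 was 3.39-fold higher (1.76, SE 0.23, limma, adjusted p = 0.000737). Etv1 did not pass, at -0.89 (SE 0.45, limma, adjusted p = 0.128), and its groups overlapped. Etv4 and Etv5 lay wholly above cortex, as 41.8% of genes did. Without ETV5 replicate 2 the Etv1 value was -1.37 and passed (limma, adjusted p = 0.010, range 0.010 to 0.278 over all alternatives).

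In NPY tumours 2 of the 3 members passed against cortex, where 71.0% of 14613 genes did, 35.1% as higher and 35.8% as lower. Etv1 was 3.95-fold lower (log2 fold change -1.98, SE 0.19, limma, adjusted p = 6.95e-05). Etv5 was 2.29-fold higher (1.20, SE 0.19, limma, adjusted p = 0.000967). Etv4 did not pass at 0.87 (SE 0.37, limma, adjusted p = 0.0701), although each NPY library lay above each cortex library, as for Etv5 and for 42.1% of genes. Etv1 lay wholly below cortex, as 35.2% of genes did. The Etv4 call turned with the method: edgeR gave 1.02 (adjusted p = 0.0492) and DESeq2 gave 1.003 (adjusted p = 0.0288), within a range of 0.0288 to 0.388 over all alternatives. NPY and cortex libraries had different code prefixes.

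**Figure D2:**
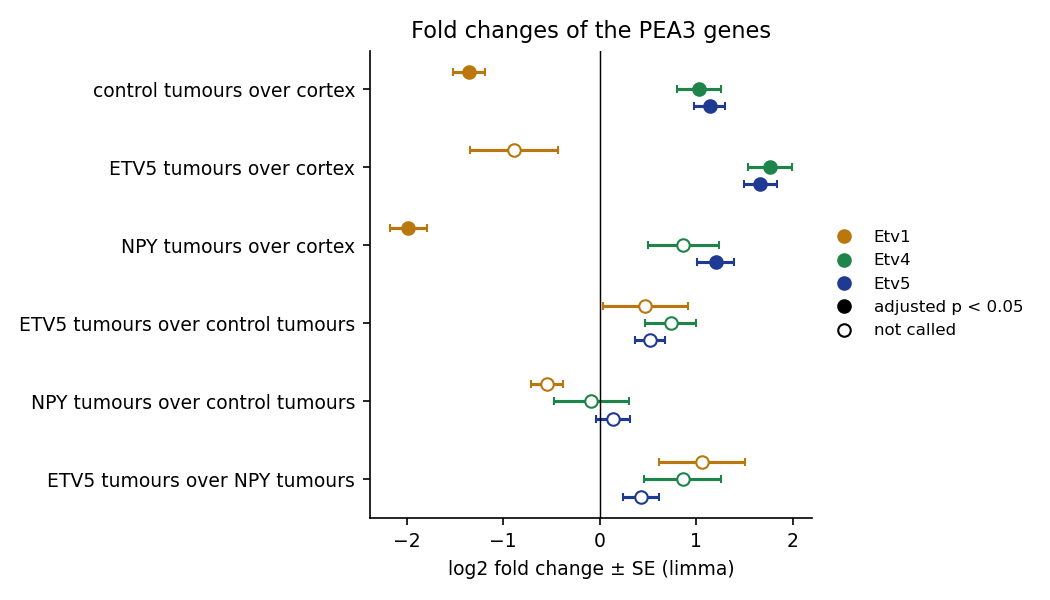
Log2 fold changes (horizontal axis, ± SE, limma) of Etv1, Etv4 and Etv5 in 6 comparisons, with filled points for an adjusted p under 0.05 and open points otherwise. Etv5 passes in each of the 3 comparisons with cortex, Etv1 lies below 0 in all 3 of them, and no member passes between tumour groups.

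Per kilobase of exon, Etv5 was the main PEA3 transcript in each of the 12 libraries. It made up 82.7 ± 3.05% of the summed level in ETV5 tumours, 86.4 ± 5.14% in NPY tumours, 84.1 ± 4.57% in control tumours and 74.0 ± 2.75% in cortex (SD, n = 3 each). Etv4 made up 14.5% in ETV5 tumours, 11.8% in NPY tumours, 13.1% in control tumours and 12.1% in cortex on average. Etv1 took 2.84%, 1.76% and 2.76% in the same 3 tumour groups and 13.9% in cortex. These shares depend on the length used, because the exons of Etv1 add up to 13296 bases, against 3104 for Etv4 and 4103 for Etv5. With the longest coding transcript of each gene, a choice made after seeing the data, Etv1 took 4.99%, 3.14% and 4.88% in the tumour groups and 22.5% in cortex.

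The summed level was 115, 144 and 119 CPM per kilobase in ETV5 tumours and 92.4, 97.9 and 70.5 in NPY tumours. It was 81.3, 89.1 and 85.6 in control tumours and 36.0, 45.5 and 36.3 in cortex. Each ETV5 library was above each library of the other groups, and each tumour library was above all of cortex. Most of the sum in ETV5 tumours is mouse Etv5, whose row may include reads of human ETV5. How often other genes or sums show this order was not computed. NPY and control tumours overlapped.

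**Figure D3:**
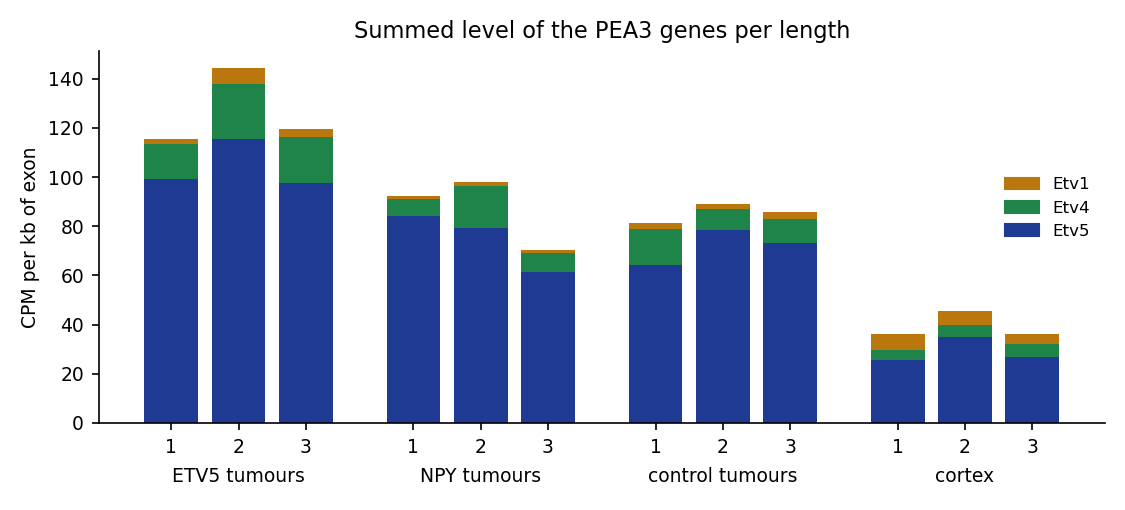
Stacked level of Etv5, Etv4 and Etv1 in CPM per kilobase of exon (vertical axis, from 0) in each library, numbered by replicate. The ETV5 tumours reach 115 to 144, and the cortex bars reach 36.0 to 45.5, with Etv1 at 13.9% of the sum there on average. The Etv5 part in ETV5 tumours may include reads of human ETV5.

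Within single groups, the 3 genes sat at different heights of the transcriptome. Etv5 exceeded 98.2% of 23309 genes per kilobase in ETV5 tumours, 97.1% in NPY tumours, 97.0% in control tumours and 92.6% in cortex. Etv4 exceeded 86.7%, 78.6% and 79.3% of genes in the ETV5, NPY and control tumours and 67.6% in cortex. Etv1 exceeded 61.1%, 51.7% and 54.1% in those tumours and 69.8% in cortex, where it ranked above Etv4.

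The ETS family holds 26 genes in the tables, the PEA3 genes and 23 others. Per kilobase, Etv5 ranked first among the 26 in all 4 groups, with 39.6% of the summed ETS level in ETV5 tumours, 32.1% in NPY tumours, 32.3% in control tumours and 27.7% in cortex. Behind it came Etv4 in ETV5 tumours (18.4 ± 3.98 CPM per kilobase), Elf4, a factor of lymphoid and myeloid cells, in NPY tumours (25.6 ± 5.53), Spi1, which drives myeloid development, in control tumours (19.1 ± 6.71) and Erf, an ERK-controlled repressor, in cortex (15.2 ± 2.36). Etv4 ranked seventh in NPY tumours, control tumours and cortex. Etv1 ranked 15 in ETV5 tumours, 19 in NPY tumours, 17 in control tumours and 5 in cortex.

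Of 16 other ETS genes tested between control tumours and cortex, 12 rose and 2 fell, with a median log2 fold change of 1.55. Among all genes tested, 35.7% rose and 36.2% fell. Elf4 rose 48.8-fold, Spi1 12.6-fold and Fli1, a factor of endothelial and blood cells, 6.58-fold. Elk1, a nuclear substrate of ERK, fell (34.6 ± 4.61 CPM in control tumours and 75.5 ± 4.93 in cortex), as did its relative Elk4. Ordered by fold change among the 19 ETS genes tested, Etv5 was number 11, Etv4 number 12 and Etv1 the lowest. All 8 myeloid markers and 5 of 6 endothelial markers rose in the same comparison. The summed myeloid markers stood at 2689 to 5732 CPM in control tumours and at 354 to 392.5 CPM in cortex, and their part in these ETS changes was not tested.

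**Figure D4:**
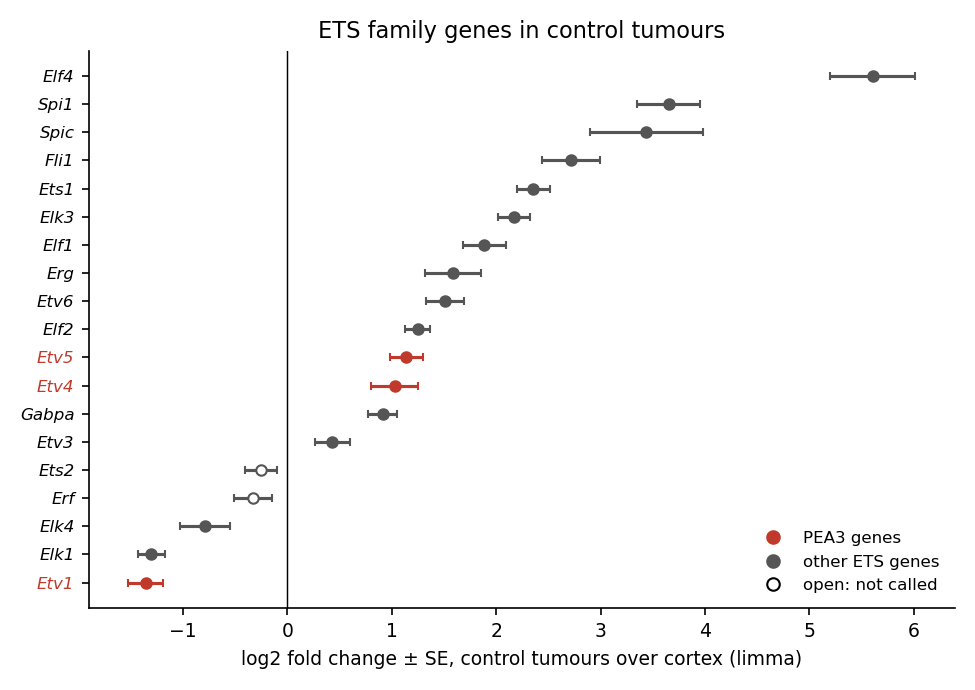
Log2 fold change (horizontal axis, ± SE, limma) of the 19 ETS genes tested, control tumours over cortex, with PEA3 genes in red and open points for genes that did not pass. Etv4 at 1.03 and Etv5 at 1.14 lie mid-range, and Etv1 at -1.36 is the lowest.

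The genes upstream of the PEA3 factors moved in both directions between control tumours and cortex, as did all genes tested (35.7% higher and 36.2% lower). Of 16 receptor and ligand genes tested, 4 rose and 5 fell (median 0.01). Fgfr1, an FGF receptor, rose 5.77-fold (373 ± 73.3 CPM in control tumours and 57.2 ± 9.92 in cortex), while Fgfr3 fell (56.3 ± 5.28 and 159 ± 19.3 CPM), as did the ligands Fgf9 and Fgf1. Of 18 RAS-ERK core genes, 4 rose and 7 fell (median -0.07). Rps6ka1, a kinase activated by ERK, rose 21.3-fold. Braf and Map2k1 (MEK) fell, with Map2k1 at 102 ± 8.54 CPM in control tumours and 307 ± 39.0 in cortex.

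Genes of the Capicua repressor complex also moved in both directions, and most COP1 ligase genes did not pass. Of 7 genes listed with the Capicua repressor and its partners, 3 rose and 3 fell, where 72.0% of all genes tested passed. Cic stood at 101 ± 8.89 CPM in control tumours and 154 ± 4.79 in cortex, a 1.73-fold lower value (log2 fold change -0.79, limma, adjusted p = 0.000338), and its partner Atxn1 was 3.85-fold lower. The other partner, Atxn1l, was 1.48-fold higher, and the histone deacetylase Hdac1 2.87-fold higher. Of 7 COP1 ligase genes tested, 2 rose and 1 fell. Rfwd2, the older symbol of Cop1, did not pass (81.9 ± 9.38 CPM in control tumours and 82.9 ± 5.46 in cortex, log2 fold change -0.20, SE 0.12).

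Genes induced by ERK moved in both directions. Of 16 tested, 5 rose and 7 fell between control tumours and cortex (median 0.17). Over all genes tested 35.7% rose and 36.2% fell, so a split in both directions was general. Lif, a cytokine gene barely detected in cortex, rose (90.9 ± 58.7 CPM in control tumours and 0.52 ± 0.17 in cortex), and Ccnd1, the G1 cyclin D1, rose 12.1-fold. Spry4, a feedback inhibitor of receptor kinases, rose 3.24-fold, whereas the immediate early gene Egr1 and the ERK pathway inhibitor Spred3 fell. Dusp6, the ERK phosphatase, did not pass (102 ± 7.26 CPM in control tumours and 94.1 ± 25.3 in cortex).

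Of 17 genes reported elsewhere as PEA3 targets, 11 rose and 2 fell, with a median of 1.80. The shares over all genes tested were 35.7% higher and 36.2% lower. Those that rose included Vim, an intermediate filament gene (1981 ± 165 CPM in control tumours and 39.6 ± 2.02 in cortex), Twist1, a factor of mesenchyme, and Plau, the urokinase protease. Pou3f1, a neural and germ cell factor, and the receptor gene Met were the 2 that fell. All 6 fibroblast markers rose in this comparison too, with summed levels of 2352 to 3233 CPM in control tumours and 106 to 146 in cortex, and their part in the target list was not tested.

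ETV5 tumours were then compared with control tumours, the question being whether the endogenous genes differ when human ETV5 is added. No member passed, and neither did any of the 14382 genes tested by limma (0% called), while 944 had an unadjusted p under 0.05, edgeR called 0 and DESeq2 called 75. The values were higher on average for all 3 genes. Their fold changes lay above those of 93.9% (Etv1), 97.9% (Etv4) and 95.3% (Etv5) of the genes tested, which is a description of rank and not a call. That rank includes ETV5 replicate 2, without which the values were -0.0073 for Etv1, 0.59 for Etv4 and 0.46 for Etv5.

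Etv5 stood at 407, 474 and 401 CPM in ETV5 tumours, against 264, 322 and 299.5 CPM in control tumours. Every ETV5 library lay above every control library, as for 7.10% of the genes tested. The log2 fold change was 0.52 (SE 0.16, limma, unadjusted p = 0.0127, adjusted p = 0.732). Without ETV5 replicate 2 it was 0.46, and without replicate 3, which leaves code prefix DS alone, 0.54.

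Etv4 stood at 44.4, 69.0 and 57.8 CPM in ETV5 tumours, against 45.1, 26.6 and 31.3 CPM in control tumours. The lowest ETV5 library and the highest control library overlapped narrowly. The log2 fold change was 0.73 (SE 0.26, limma, unadjusted p = 0.0284, adjusted p = 0.732), and 0.59 without ETV5 replicate 2.

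Etv1 was spread most widely, at 23.9, 84.9 and 40.1 CPM in ETV5 tumours, against 32.3, 27.5 and 33.7 CPM in control tumours. ETV5 replicate 2 alone was at the level of cortex, and replicate 1 lay below all controls. The log2 fold change of 0.47 (SE 0.44, limma, adjusted p = 0.826) became -0.01 without ETV5 replicate 2, so its sign rested on that library.

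The same library was the highest of the 9 tumours for 8 of 15 ERK-induced genes with a mean of at least 5 CPM in tumours. Its share over all genes was not computed, so this count does not set ERK-induced genes apart from other genes. Spry4 stood at 89.0, 219 and 95.7 CPM in ETV5 tumours, against 53.7, 53.4 and 60.0 CPM in control tumours. Spry1, its relative, stood at 18.2, 113 and 39.7 CPM in ETV5 tumours, against 17.9, 16.1 and 17.6 CPM in control tumours. All ETV5 libraries were above all control libraries for Spry4, and narrowly for Spry1, as for 7.10% of the genes tested. Dusp6 reached 240.0 CPM in ETV5 replicate 2, against 106 and 105 CPM in the other ETV5 libraries and 95.7 to 110.1 CPM in control tumours. Of the 16 ERK-induced genes tested, 13 had a value above 0 with all libraries, with a median log2 fold change of 0.43, and none passed. With single libraries left out, the lowest values were 0.64 for Spry1, 0.12 for Spry2, 0.73 for Spry4 and 0.04 for Dusp6. Il17rd, an inhibitor of FGF signalling, turned from 0.58 with all libraries to -0.22 without ETV5 replicate 2. The pan-neuronal sum in CPM was 61.9 for ETV5 replicate 1, 587 for replicate 2 and 227 for replicate 3, with 382 to 914 in control tumours, and the part of neural tissue in the ETV5 replicate 2 values was not tested.

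**Figure D5:**
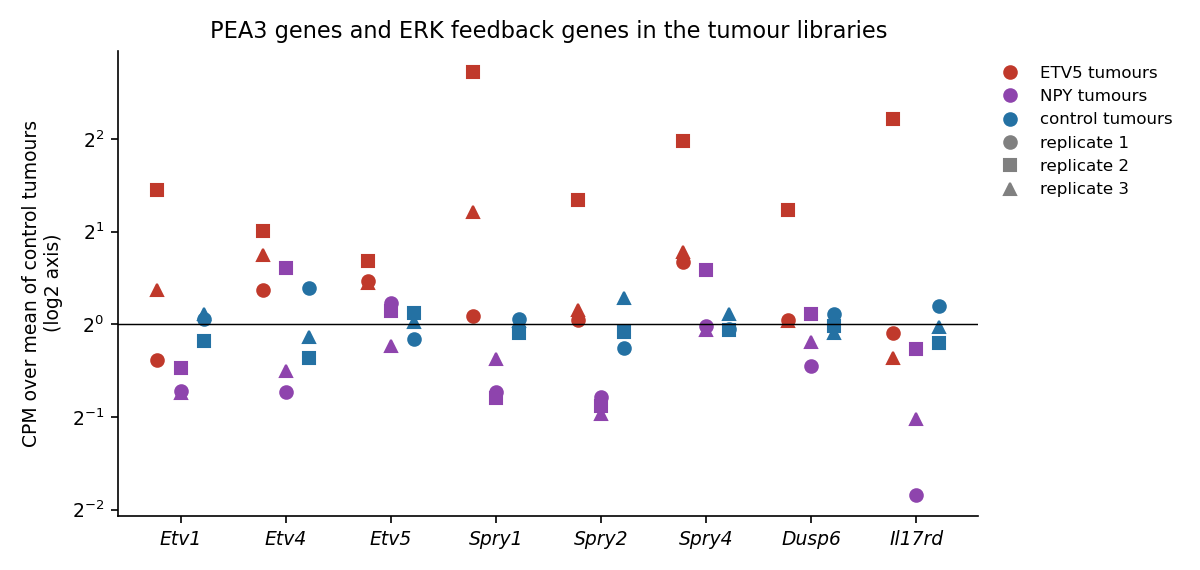
CPM of each tumour library divided by the mean of the control tumours (vertical axis, log2 scale) for the PEA3 genes and 5 ERK feedback genes, coloured by group and shaped by replicate. ETV5 replicate 2 is the highest library for all 8 genes shown, with Spry1 at 6.61 and Etv1 at 2.72 times the control mean. The 5 ERK feedback genes were picked with their values in view, and this library was the highest for 8 of 15 ERK-induced genes. How often it was the highest over all genes was not computed.

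Among 22 ETS genes tested between ETV5 and control tumours, Etv4, Etv5 and Etv1 held ranks 2, 3 and 4 by fold change. These ranks include ETV5 replicate 2, without which the Etv1 value was -0.0073. Rank 1 was Spdef, an epithelial ETS factor, at 51.6 CPM in ETV5 replicate 2 and 1.31 and 1.95 CPM in replicates 1 and 3. The other 19 ETS genes tested had a median of -0.17, with 6 above 0 and 13 below. None of the receptor, RAS-ERK, Capicua or COP1 genes passed. Cic stood at 107 ± 8.38 CPM in ETV5 tumours and 101 ± 8.89 in control tumours, and Atxn1l at 137 ± 25.4 and 93.7 ± 21.2 CPM. Of 18 reported PEA3 targets tested, 5 had a value above 0 and 13 below, with a median of -0.23 and no call. All 6 fibroblast markers (median -1.09), all 6 endothelial markers (-0.63) and 7 of 8 myeloid markers (-0.96) also had values below 0, with no call. The fibroblast sum was 930 to 1622 CPM in ETV5 tumours and 2352 to 3233 CPM in control tumours, and the part of these markers in the target list was not tested.

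NPY tumours were compared with the same control libraries. No member passed, where 5.04% of 14425 genes did, most of them lower. Etv1 stood at 18.9, 22.5 and 18.7 CPM in NPY tumours, against 32.3, 27.5 and 33.7 CPM in control tumours. Every NPY library lay below every control library, as for 18.4% of the genes tested. The log2 fold change was -0.55 (SE 0.17, limma, adjusted p = 0.112).

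Etv4 and Etv5 overlapped between NPY and control tumours. Etv4 stood at 20.6, 52.5 and 24.2 CPM in NPY tumours, against 45.1, 26.6 and 31.3 CPM in control tumours, and NPY replicate 2 was the highest of the 6. Its log2 fold change was -0.09 (SE 0.39, limma, adjusted p = 0.921), with values from -0.51 to 0.18 when single libraries were left out. Etv5 stood at 346, 326 and 251 CPM in NPY tumours, against 264, 322 and 299.5 CPM in control tumours, with a log2 fold change of 0.14 (SE 0.17, limma, adjusted p = 0.692). Approximate intervals of 2 SE around these values include changes larger than 1.5-fold for Etv4, so its lack of a call does not show equal levels.

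In NPY tumours 6 of 8 excitatory neuron markers, 4 of 6 pan-neuronal markers and 3 of 8 astrocyte markers fell against control tumours. Of all 14425 genes tested, 622 were called lower and 105 higher. Layer 5 neuron, radial glia, oligodendrocyte precursor and myelin markers each had 1 member that fell, and 2 of 6 proliferation markers rose. No myeloid, endothelial or fibroblast marker passed. The pan-neuronal sum was 37.6 to 73.7 CPM in NPY tumours and 382 to 914 CPM in control tumours, and the astrocyte sum was 677 to 1978 CPM and 4077 to 4685 CPM. Their part in the Etv1 values was not tested. Spry2 stood at 23.8, 22.4 and 20.99 CPM in NPY tumours, against 34.4, 39.0 and 50.1 CPM in control tumours, and did not pass. Dusp4, another ERK-induced gene, went the other way, at 48.2, 53.6 and 32.2 CPM in NPY tumours and 6.35, 24.5 and 14.0 in control tumours. Of 16 ERK-induced genes tested, 6 had a value above 0 and 10 below, and none passed. Gfra1, the GDNF co-receptor, was the 1 receptor gene that passed, at 12.7 ± 3.23 CPM in NPY tumours and 39.3 ± 2.78 in control tumours. All NPY libraries carry code prefix EC and all control libraries DS, so added gene and prefix cannot be told apart in this comparison. A fit of all 12 libraries with the prefix as a term, added after seeing the data, gave -0.48 for Etv1, -0.25 for Etv4 and 0.17 for Etv5. Only the ETV5 group holds both prefixes, so that term rests on ETV5 replicate 3 alone against the DS libraries of its group. These values therefore do not separate added gene from prefix.

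ETV5 and NPY tumours were set against each other on reads scaled together. None of the 3 members and none of 14023 genes passed in limma (0% called), while 802 had an unadjusted p under 0.05, edgeR called 0 and DESeq2 called 56. Etv1, Etv4 and Etv5 had the 3 highest fold changes of the 20 ETS genes tested, at 1.06 (SE 0.45), 0.86 (SE 0.40) and 0.43 (SE 0.18), each with a limma adjusted p of 0.817. Without ETV5 replicate 2 they were 0.59, 0.73 and 0.37, and with any single library left out Etv1 ran from 0.59 to 1.49, Etv4 from 0.59 to 1.29 and Etv5 from 0.27 to 0.51. For Etv1 and Etv5 every ETV5 library lay above every NPY library in CPM, as for 7.47% of the genes tested, and for Etv4 the groups overlapped. Within prefix EC, which holds ETV5 replicate 3 and the 3 NPY tumours, the values were 0.99, 0.95 and 0.39. The lone ETV5 library is assumed there to vary like the NPY group. All 6 pan-neuronal markers (median 1.88), all 5 excitatory markers tested (1.75) and 7 of 8 astrocyte markers (1.22) had values above 0 in ETV5 against NPY tumours, and all 8 myeloid markers had values below 0 (-0.65), none of them called. The astrocyte sum was 1232 to 4404 CPM in ETV5 tumours and 677 to 1978 CPM in NPY tumours. The part of these markers in the PEA3 values was not tested.

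By mean level, the order was cortex, ETV5, control and NPY tumours for Etv1. It was ETV5, control, NPY and cortex for Etv4, and ETV5, NPY, control and cortex for Etv5. Neighbours in these orders did not differ by an adjusted p under 0.05, except control tumours over cortex for Etv5. For Etv4 the NPY tumours and cortex, next to each other at the low end, were the pair whose call turned with the method.

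Across the 12 libraries, log2(CPM + 1) of Etv4 and Etv5 correlated at r = 0.842, Etv1 and Etv4 at -0.222, and Etv1 and Etv5 at -0.488. Over the 9 tumours alone the 3 values were 0.582, 0.712 and 0.604. ETV5 replicate 2 was the highest of the 9 for all 3 genes, and the correlations were not computed without it. The tumour values may therefore rest largely on that library. All these correlations are descriptions over libraries that share depth scaling and group differences. The genes whose pattern was most like that of Etv1 over 12 libraries, among 12381 genes, included Tmem229a (r = 0.973), Fndc4, Olfm2 and Pcdh17. For Etv4 they were Phc2 (0.966), Wnt1 (0.961), Naa16, Tfap2c and Zfp598, and for Etv5 Crat (0.974), Msi2 (0.974), Pnrc2, Smek1 and Dnaaf5. Over the 9 tumours, ETV5 replicate 2 included, the first among 11977 genes were Bcl2 for Etv1 (0.982), Dimt1 for Etv4 (0.968) and Chd6 for Etv5 (0.970).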

How the data were processed

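The authors deposited 2 tables of normalized signal, 1 with cortex, control and ETV5 libraries and 1 with control and NPY libraries. Within a library, each deposited value was read counts divided by a single size factor, so whole reads came back for 100% of values (tolerance 0.01 read). The control reads were the same in both tables. Per the submitters' processing notes, with no role stated, the build was mm10 and the tools included STAR 2.5.0a and DESeq2 1.30.1, with FastQC 0.11.7 and MultiQC 1.6. Counting tool, strand setting and annotation: not given in the sources used here.

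CPM were computed from the recovered reads, and the tests used limma 3.58.1 (R 4.3.3, trend and robust moderation, two-sided) on log2(deposited signal + 1), with the 2 groups compared, genes kept by the edgeR filter on recovered reads, and Benjamini-Hochberg adjustment over all of them. NPY tumours against cortex or ETV5 tumours used reads scaled together by median of ratios over the 12 libraries. edgeR 4.0.16, DESeq2 1.42.0, limma-voom, other pseudocounts, scalings and filters, a replicate block, the code prefix and each library left out were alternatives. The fits were tested on simulated data.

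The members and the 18 gene lists were chosen with earlier results of these data known, and no list was tested as a set. Of 189 listed symbols 1, Cop1, was absent. Named genes are, per pathway list, up to 3 called in each direction with the largest change between control tumours and cortex and a mean of at least 5 CPM, or the 2 most abundant, and per marker list abundant members. Spry1, Spry2, Spry4, Dusp4, Dusp6, Il17rd, Gfra1 and Cic in the tumour comparisons were picked with their values in view. So were Rfwd2, Spdef and, in control tumours against cortex, Spry4 and Dusp6. The rule allows further genes that are not reported here.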

Additional observations from a re-analysis of the deposited data

How the results depend on the processing

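Of the members' fold changes under all alternatives, 310 kept their direction and side of the threshold, 7 became calls and 4 turned sign. The signs that turned were Etv1 in ETV5 against control tumours, at -0.0073 without ETV5 replicate 2 (range -0.0073 to 0.92 over libraries left out), and Etv4 in NPY against control tumours, at 0.13, 0.18 and 0.07 without control replicate 1, NPY replicate 1 and NPY replicate 3 (range -0.51 to 0.18). Calls were gained by Etv1 in ETV5 tumours against cortex (-1.37 without ETV5 replicate 2, range -1.37 to -0.44) and by Etv4 in NPY tumours against cortex. Etv4 was called there with edgeR (1.02), DESeq2 (1.003), CPM scaling (1.03), all groups in the fit (0.87) and without NPY replicate 1 (1.14, range 0.43 to 1.14). Adjusted p-values of that result ran from 0.0288 to 0.388 over limma, edgeR and DESeq2. Il17rd turned to -0.22 without ETV5 replicate 2. The causes were not tested.

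Genes called moved by more than 1.5 times as follows. For ETV5 against control tumours DESeq2 called 75 and the prefix term 13, against 0. The prefix term, here and below, rests on ETV5 replicate 3 alone against the other ETV5 libraries. For NPY against control tumours, 727 became 1833 with DESeq2, 32 with the prefix term, and 1 to 571 with a library left out (138, 1 and 78 without control replicates 1, 2 and 3, and 125 without NPY replicate 1). For NPY tumours against cortex the prefix term left 6863 of 10368. For ETV5 against NPY tumours DESeq2 called 56, no filter 1, all groups in the fit 5, the prefix term 2, and a library left out 0 to 1, against 0. CPM scaling moved the median of all genes against cortex by 0.17 in control tumours, and its calls there split into 6010 higher and 4570 lower, against 5225 and 5296. In ETV5 tumours they split into 5381 and 4070, and in NPY tumours into 5755 and 4775. The level of Etv4 in cortex over that in control tumours was 0.498 under median of ratios and 0.426 in CPM.

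Replicate numbers did not pair the libraries: correlations of same-numbered libraries after removal of group means ran from -0.385 to 0.354. A fit with the replicate number as a block called Etv4 in NPY tumours against cortex (0.87, limma, adjusted p = 0.0426), and called 264 genes between NPY and control tumours. It changed no other member's call. Etv4 had 90 to 119 reads per library in cortex, which limits the precision of its level there.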
